A study of Mus musculus with 5 samples.

Results

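The non-classical MHC class I genes of the H2 complex on mouse chromosome 17 were followed in haematopoietic stem and progenitor cells of mice labelled null for Gabbr1, a GABA-B receptor subunit gene of the same stretch of chromosome 17. The 10 genes were fixed by name: 4 of the Q region (H2-Q4, H2-Q6, H2-Q7 and H2-Q10), 5 of the T region (H2-T3, H2-T10, H2-T22, H2-T23 and H2-T24) and H2-M3. All 10 had a row among the 39056 genes of the count table, and 8 passed a filter on low counts and were tested. The libraries came from 3 samples of Gabbr1 null mutant mice and 2 samples of wild-type (WT) mice, all of C57BL/6 background at postnatal day 15. Each library was made from about 12000 sorted bone marrow cells of the LSK gate (lineage-negative, Sca-1-positive, Kit-positive), where stem cells and multipotent progenitors of the marrow are found. Not given in the sources used here were the null allele, the sex and litter of the mice and whether each library is its own animal. P-values therefore measure the spread among 5 libraries, and that spread may be technical.

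Class I molecules pair a heavy chain with the light chain beta-2 microglobulin and show peptides or their own fold at the cell surface. The classical heavy chains H2-K1 and H2-D1 are highly polymorphic and present peptides to CD8 T cells. The non-classical heavy chains vary less between strains, and several have restricted partners: H2-T23 encodes Qa-1, which is read by the CD94/NKG2 receptors of NK cells, H2-M3 presents N-formylated peptides, H2-T10 and H2-T22 are recognised by some gamma-delta T cells, and H2-Q6 and H2-Q7 encode forms of the lipid-anchored molecule Qa-2. Class I promoters are known to carry an interferon response element, a kappaB site, a CRE-like site and a CCAAT box close to the start of transcription.

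Promoter windows of RefSeq on GRCm38.p6, each 300 bases long with 250 bases before the annotated start, were found for 8 of the 10 genes, all but H2-T10 and H2-T24. The stretches from 210 to 51 bases before the start are shown for 5 genes with transcripts in these cells, because they let the control sequences of genes with different levels be compared. Capitals mark exact matches, on either strand, to TTTCACTT (the core read by interferon regulatory factors), GGGATTCCC (the kappaB core), TGATGAC (CRE-like) and CCAAT, which reads ATTGG on the other strand. No match in these windows overlapped another.
H2-Q4: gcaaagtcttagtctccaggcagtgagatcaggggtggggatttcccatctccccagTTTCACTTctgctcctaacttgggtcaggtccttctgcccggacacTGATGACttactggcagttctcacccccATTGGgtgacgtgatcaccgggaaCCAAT
H2-Q6: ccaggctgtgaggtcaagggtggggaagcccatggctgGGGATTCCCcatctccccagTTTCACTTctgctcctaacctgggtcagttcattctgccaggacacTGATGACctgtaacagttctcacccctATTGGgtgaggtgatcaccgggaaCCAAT
H2-Q7: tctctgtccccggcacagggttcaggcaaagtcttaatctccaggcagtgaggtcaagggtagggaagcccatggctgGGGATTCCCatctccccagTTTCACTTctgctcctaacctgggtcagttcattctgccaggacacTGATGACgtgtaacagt
H2-T22: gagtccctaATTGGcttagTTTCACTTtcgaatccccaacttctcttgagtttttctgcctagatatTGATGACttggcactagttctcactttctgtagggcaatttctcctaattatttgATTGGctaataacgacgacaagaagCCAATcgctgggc
H2-M3: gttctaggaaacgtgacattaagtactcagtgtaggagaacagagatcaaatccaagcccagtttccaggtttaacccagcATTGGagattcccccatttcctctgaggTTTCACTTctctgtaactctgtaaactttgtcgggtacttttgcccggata
These lie at chr17:35379407-35379566, chr17:35424640-35424799, chr17:35438945-35439104 and chr17:37270024-37270183 on the plus strand and at chr17:36042793-36042952 on the minus strand. TTTCACTT was found in 7 of the 8 windows of these genes, against 1.6% of 32851 promoter windows in the genome, and it began between 101 and 191 bases before the start. TGATGAC was found in 5 of 8 windows (3.23% of all windows), GGGATTCCC in 2 of 8, those of H2-Q6 and H2-Q7 (0.353% of all), and CCAAT in 6 of 8 (37.4% of all). The window of H2-T23 held no TTTCACTT, but its RefSeq start (36032701) lies inside the gene as GENCODE annotates it, which ends at 36032855 on the minus strand, so bases before the GENCODE start are only partly in the window. The window of H2-T3 likewise holds an annotated exon of its own gene. The Q genes are related by duplication, so their windows are not independent, and a match describes letters only. Only exact strings were searched, so a near match such as gggatttccc in the H2-Q4 stretch is not marked.

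H2-Q4 and H2-T23 gave most of the reads of this family. Levels are given below as CPM, the counts of a gene per 1e6 counts of its library, scaled by TMM, edgeR's library scaling, and levels between genes are compared only as CPM per kilobase of merged exons. On that per-kilobase scale H2-Q4 averaged 35.1 ± 8.62 and H2-T23 23.5 ± 4.51 (SD over all 5 libraries). H2-T22 (9.76 ± 1.15), H2-M3 (9.63 ± 2.21) and H2-T24 (9.22 ± 3.30 CPM per kilobase) formed a middle group whose ranges overlapped, with no constant order between libraries. H2-Q6 followed at 5.33 ± 1.83, H2-T10 at 3.12 ± 0.564 and H2-Q7 at 1.67 ± 0.844 CPM per kilobase. The ranges of neighbours overlapped throughout this order except between H2-T23 and H2-T22 and below H2-Q7, yet within each library H2-Q4 stood above H2-T23, and H2-Q6 above H2-T10. These levels use the full exon length, and the share of sequence also found in other genes differs between the genes. The part of that share in the order was not tested.

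Transcripts of H2-Q10 and H2-T3 were close to or below the limit of the libraries. H2-Q10, known as a secreted product of liver, had 2, 0 and 1 counts in null libraries 1, 2 and 3 and 2 and 2 counts in WT. H2-T3, which encodes the thymus leukaemia antigen of intestinal epithelium, had 0 counts in all 5 libraries, which allows up to 3 counts per library or between 0.368 and 0.430 CPM (counting error only). Both promoter windows held TTTCACTT, as did those of the tested genes with a window other than H2-T23. Neither gene was tested.

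**Figure D1:**
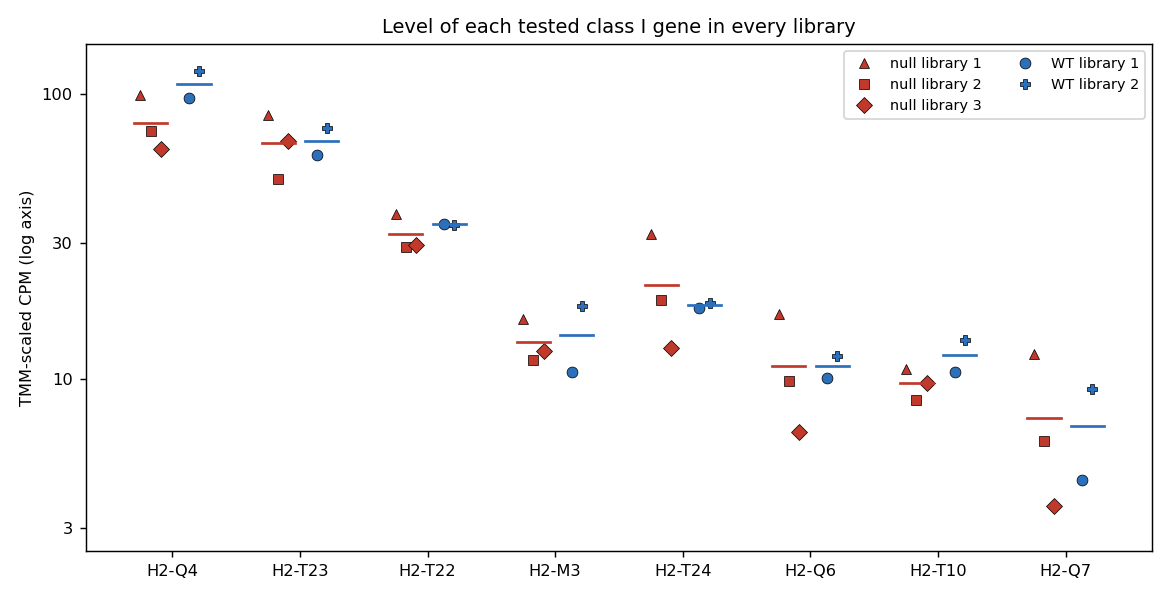
TMM-scaled CPM (log axis) of the 8 tested genes in each library, ordered by level per kilobase, with null libraries (red) left of WT libraries (blue) and group means as lines. Null library 1 (triangles) is the highest null library for all 8 genes, and the groups overlap for each gene.

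The first comparison asked whether loss of Gabbr1 went with a change of these transcripts in LSK cells. None of the 8 tested genes passed the threshold in either direction (edgeR quasi-likelihood test, Benjamini-Hochberg adjusted p under 0.05 over 13467 genes), and 1 of 8, H2-Q4, had an unadjusted p under 0.05. DESeq2 and limma-voom also called 0 of them, each with 1 at an unadjusted p under 0.05. Of all tested genes 2.48% were called, 2.15% higher and 0.334% lower in null. At an unadjusted p under 0.05 the shares were 7.99% for higher and 4.84% for lower genes. DESeq2 called 0.172% and limma-voom 0.26% of their tested genes lower. The log2 fold changes of the 8 genes ran from -0.46 to 0.23 with a median of -0.05, beside a median of 0.00 over all tested genes. No gene of the 8 had null and WT libraries that did not overlap, whereas 15.5% of all tested genes lay wholly higher and 13.7% wholly lower in null. With all 5 libraries the 95% interval of the difference left out a 2-fold change in both directions for 7 of the 8 genes. Without null library 1 the intervals of H2-Q6 (-1.03 to 0.17) and H2-Q7 (-1.31 to 0.32) did not leave out a 2-fold fall.

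H2-Q4 (ENSMUSG00000035929.11, chromosome 17, 35379617 to 35385290, mm10) was the most abundant and had the lowest p. It had 748, 564 and 520 counts in null libraries 1, 2 and 3, against 787 and 849 counts in WT libraries 1 and 2. In CPM these were 99.7, 74.4 and 64.1 in null, against 96.9 and 121 in WT. Null libraries 2 and 3 lay below both WT libraries, while null library 1 lay between them. The mean was 79.4 ± 18.3 CPM in null (SD, n = 3) and 109 ± 17 CPM in WT (SD, n = 2). The log2 fold change was -0.46 with SE 0.17 and a 95% interval from -0.82 to -0.09. The unadjusted p was 0.0187 and the edgeR adjusted p 0.252. Without null library 1 the log2 fold change was -0.65 ± 0.15 (SE) and H2-Q4 was called lower (edgeR adjusted p = 0.0246), where 1.88% of all tested genes were called higher, 0.386% were called lower and 3.98% were lower at an unadjusted p under 0.05. DESeq2 and limma-voom gave adjusted p of 0.0355 and 0.0283 without that library, fits added after the data were seen. Without WT library 2 it was -0.29 (edgeR adjusted p = 0.782), without null library 3 -0.32 (0.565), without null library 2 -0.41 (0.43) and without WT library 1 -0.62 (0.193), none of them called. With no filter on low counts H2-Q4 was called lower (edgeR adjusted p = 0.0089, where 0.652% of genes were called lower), at an unchanged log2 fold change of -0.46. It was also called lower with sex as a covariate (edgeR adjusted p = 0.0232, where 0.371% were). That covariate takes null library 1 out of the comparison, so the call repeats the one without that library.

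H2-Q6 and H2-Q7, the other Q region genes among the 8 tested genes, code for Qa-2 forms. Of these 8 they had the largest SD relative to the mean within the null group. H2-Q6 (ENSMUSG00000073409.12, chromosome 17, 35424850 to 35430055) had 127, 75 and 53 counts in null libraries 1, 2 and 3, against 82 and 85 counts in WT libraries 1 and 2, or 11.1 ± 5.30 CPM in null (SD, n = 3) and 11.1 ± 1.42 CPM in WT (SD, n = 2). The null values spanned the WT values on both sides, and the log2 fold change was 0.00 ± 0.33 (SE), at an edgeR adjusted p of 0.999. H2-Q7 (ENSMUSG00000060550.15, 35439155 to 35443773) had 12.3, 6.07 and 3.58 CPM in null and 4.43 and 9.26 CPM in WT. Its order over the null libraries was that of H2-Q6, and its log2 fold change was 0.10 ± 0.46 (SE), at an edgeR adjusted p of 0.963. The 95% interval of H2-Q7, from -0.90 to 1.10, was the widest of the 8 and did not leave out a 2-fold rise. The windows of both hold all 4 motifs of the search, each nearer to the annotated start in H2-Q7: TTTCACTT began 113 bases before it in H2-Q7 and 152 in H2-Q6, and the CCAAT boxes of H2-Q7 lie beyond the stretch printed above.

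H2-T23, the Qa-1 gene (ENSMUSG00000067212.8, chromosome 17, 36029773 to 36032855), had 84.2, 50.5 and 68.3 CPM in null libraries 1, 2 and 3, against 61.0 and 75.9 CPM in WT libraries 1 and 2. Both WT values lay inside the range of the null values, and the means were 67.7 CPM in null and 68.5 CPM in WT. The log2 fold change was -0.02 ± 0.18 (SE), at an edgeR adjusted p of 0.987, with a 95% interval from -0.41 to 0.38. With 383 to 632 counts per library, that interval ran from 0.752-fold to 1.30-fold.

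The gamma-delta T cell ligands H2-T22 and H2-T10 had slightly negative differences that did not pass. H2-T22 (ENSMUSG00000056116.18, chromosome 17, 36037128 to 36042747) had 38.1, 29.0 and 29.5 CPM in null libraries 1, 2 and 3, against 35.1 and 34.9 CPM in WT, and its log2 fold change was -0.12 ± 0.16 (SE), at an edgeR adjusted p of 0.829. H2-T10 (ENSMUSG00000079491.9, 36115876 to 36121465), annotated as a polymorphic pseudogene, had 82, 64 and 79 counts in null and 86 and 96 counts in WT. Its means were 9.70 ± 1.24 CPM in null (SD, n = 3) and 12.1 ± 2.18 CPM in WT (SD, n = 2), and its log2 fold change was -0.32 ± 0.22 (SE), at an edgeR adjusted p of 0.614. In CPM, null libraries 2 and 3 lay below both WT libraries for these genes, as for H2-Q4, and null library 1 did not.

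H2-T24 (ENSMUSG00000053835.17, chromosome 17, 36005695 to 36020560) had 32.2, 19.0 and 12.9 CPM in null libraries 1, 2 and 3, against 17.8 and 18.5 CPM in WT. The WT pair agreed closely while the null values spread on both sides of it, and the log2 fold change was 0.23 ± 0.30 (SE), at an edgeR adjusted p of 0.825. H2-M3 (ENSMUSG00000016206.6, 37270220 to 37274484), the presenter of formylated peptides and the class I gene of the 10 nearest to Gabbr1, had 122, 89 and 102 counts in null and 86 and 127 counts in WT. All its null values lay between the WT values, and the log2 fold change was -0.08 ± 0.25 (SE), at an edgeR adjusted p of 0.942.

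**Figure D2:**
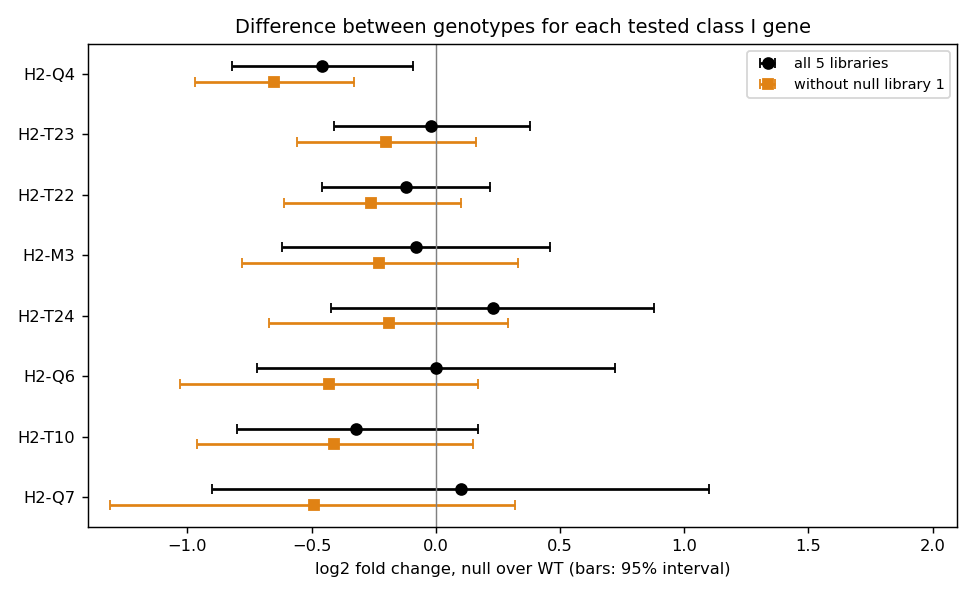
Log2 fold change of null over WT for the 8 tested genes with 95% intervals, for all 5 libraries (black circles) and without null library 1 (orange squares). With all libraries only the H2-Q4 interval lies wholly below 0. Without null library 1, the highest null library for all 8 genes, every estimate is lower. All 8 are then negative, and H2-Q4 remains the only interval clear of 0.

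Taken over the family, the spread inside each genotype was as large as the difference between them. The summed level of the 10 genes was 311, 209 and 207 CPM in null libraries 1, 2 and 3, against 247 and 304 CPM in WT libraries 1 and 2. Null libraries 2 and 3 were the lowest, and null library 1 was the highest, although with scaling by library totals alone the sum was 299 CPM there, against 306 CPM in WT library 2. The mean was 242 ± 59.2 CPM in null (SD, n = 3) and 275 ± 40.2 CPM in WT (SD, n = 2; exact two-sided permutation p = 0.6, where 10 splits make 0.1 the smallest p). H2-Q4 made up 32.1%, 35.6% and 30.9% of the counts of the 10 genes in null libraries 1, 2 and 3, against 39.3% and 39.8% in WT.

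Null library 1 led the null group for the whole tested family but did not stand apart from WT for every gene. In CPM it lay between the WT libraries for H2-Q4, H2-T10 and H2-M3. It was the highest null library for 8 of the 8 tested genes, which holds for 31.7% of all tested genes, and WT library 2 exceeded WT library 1 for 7 of 8, which holds for 49.7% of all. The median deviation from the WT mean over the 8 genes was 0.27 on the log2 scale in null library 1, -0.25 in null library 2 and -0.39 in null library 3, beside -0.16 and 0.16 in WT libraries 1 and 2. Without null library 1, 8 of 8 log2 fold changes were negative with a median of -0.33, whereas 50.4% of all tested genes were negative and their median was 0.00. As it was the highest null library for each of the 8 genes, leaving it out lowered every estimate. These signs are therefore no separate result, and the share over all genes is not a like comparison. Leaving out WT library 2 or null library 2 instead gave 3 negative and 5 positive differences in each case. These genes share the same 5 libraries and some of their reads, and are not independent replicates.

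Other measures differed between the libraries, some of them most in null library 1. Null library 1 had 22532 counts of Xist, the X-inactivation transcript of female cells, against at most 21 in each other library. The Y chromosome genes Ddx3y, Eif2s3y, Kdm5d and Uty had 0 counts in null library 1 and between 226 and 560 counts in each other library. By these transcripts null library 1 was female and the other null libraries and both WT libraries were male. Summed over 16 interferon-induced genes, the level was 566, 277 and 329 CPM in null libraries 1, 2 and 3, against 379 and 388 CPM in WT libraries 1 and 2, and none of the 16 was listed at 0 in all libraries. None of these 16 genes passed the threshold, and 1, Ifit2, was higher at an unadjusted p under 0.05. When null library 1, the null library with the highest sum, was left out, 13 of 15 tested interferon genes were negative with a median of -0.39. At an unadjusted p under 0.05, 5 were lower (3.98% of all genes) and 1, Ifit2, was higher. As the library left out had the highest sum of the null group, these signs are no separate result. The share over all genes is not a like comparison. Markers of mature neutrophils, 13 genes, summed to 2330, 618 and 140 CPM in null and 152 and 113 CPM in WT, and 10 were tested with 0 called, 9 of them higher at an unadjusted p under 0.05, while without null library 1 3 of 9 tested were called higher, beside 1.88% of all genes. Of the markers of the B lineage 13 of 13 were called higher, and of those of endothelium and stroma 8 of 13, where 2.15% of all tested genes were. Their summed levels were 713 to 1270 and 395 to 473 CPM in null, against 109 to 229 and 245 to 265 CPM in WT. Of 9 markers of the sorted population 8 had negative differences, 5 were lower at an unadjusted p under 0.05 (4.84% of all tested genes) and 1, Hlf, was called lower (edgeR adjusted p = 0.0398), a call not made without null library 1. The 9 together reached 3150, 3500 and 3310 CPM in null libraries 1, 2 and 3, against 4050 and 4200 CPM in WT. T and NK cell markers, 13 genes, summed to between 90.5 and 99.9 CPM in null and 89.0 and 109 CPM in WT, and 3 were tested with 0 called. The 3 tested, Cd4, Lck and Nkg7, each had between 143 and 364 counts in every library. The T cell receptor genes Cd3d, Cd3e, Cd3g and Trac had at most 5 counts each in any library of either genotype. The part of these cells, of the sorted population, of sex and of interferon-induced expression in the levels of the class I genes was not tested, and in bulk libraries fewer expressing cells and less RNA per cell cannot be told apart.

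**Figure D3:**
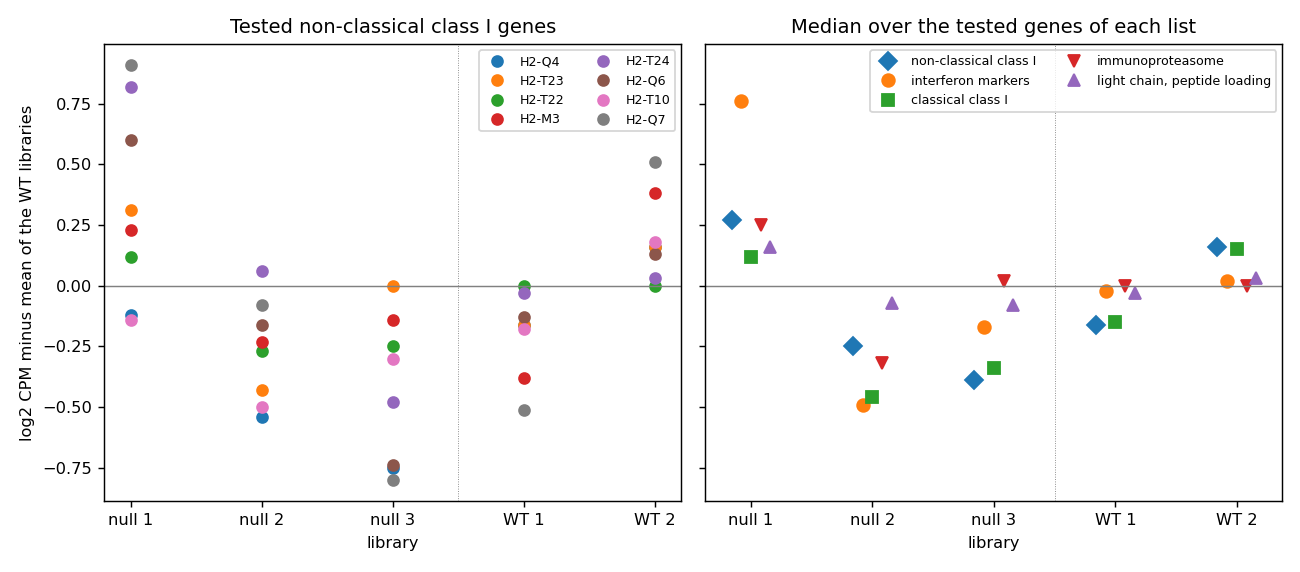
Log2 CPM minus the mean of the WT libraries, by library, for each tested gene (left) and as the median of the tested genes of 5 lists (right), null libraries left of WT libraries. The non-classical class I median is highest in null library 1 (0.27) and lowest in null library 3 (-0.39), and the interferon markers are also highest in null library 1 (0.76). The classical class I median is highest in WT library 2 (0.15) and lowest in null library 2 (-0.46).

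Genes that make, load and regulate class I molecules were described beside all tested genes, of which 2.48% were called, so that 0 calls in short lists is near that share. B2m, the shared light chain, had 1310, 852 and 1040 CPM in null libraries 1, 2 and 3, against 1320 and 1040 CPM in WT (log2 fold change -0.15 ± 0.18 SE, edgeR adjusted p = 0.805). Of 9 genes of the light chain, peptide transport and folding (among them Canx and Calr, the chaperones of the folding heavy chain), 5 immunoproteasome genes (among them Psme1 and Psmb8) and 11 transcription factors of class I promoters (among them Nfkb1 and Irf1), 0 were called in either direction, with median log2 fold changes of 0.00, 0.00 and -0.03. At an unadjusted p under 0.05, 0, 0 and 2 of them (Irf2 and Rela) were lower and none was higher. Nlrc5, the transactivator of class I genes, had 134, 97.9 and 70.4 CPM in null and 92.7 and 108 CPM in WT. H2-Q4, H2-Q6, H2-Q7 and H2-T24 had the same order among the null libraries, and H2-T23, H2-T22, H2-T10 and H2-M3 did not. A link between Nlrc5 and these genes was not tested. The classical genes H2-K1 and H2-D1 differed by -0.26 and -0.16 on the log2 scale, with SE 0.16 and 0.18 (edgeR adjusted p = 0.559 and 0.785), and both were higher in null library 1 than in the other null libraries. Without null library 1 they had -0.42 and -0.38 (edgeR adjusted p = 0.304 and 0.339).

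The class I genes lie on both sides of Gabbr1 on chromosome 17. Gabbr1 itself (37045966 to 37075067) was lower in null, at 35.5 ± 2.78 CPM (SD, n = 3) against 53.4 ± 5.60 CPM in WT (SD, n = 2; edgeR adjusted p = 0.0361). That call was lost without null library 2, null library 3, WT library 1 or WT library 2 (edgeR adjusted p = 0.0802, 0.137, 0.0722 and 0.38), and as the deleted part of the gene is unknown here, the remaining reads do not check the labels. H2-M3 lies 195.2 kb beyond its end, the T genes lie between 855.7 and 1025.4 kb before its start, and the Q genes between 1571.4 and 1660.7 kb before it. Of the 8 tested class I genes, H2-M3, the nearest, had a log2 fold change of -0.08, and H2-Q4, the farthest, had -0.46. Of the 46 other tested genes within 2000 kb of Gabbr1, 0 were called, where 2.48% of all tested genes were. An unadjusted p under 0.05 was found for 5 of the 46, with Ltb, Ier3, 2310061I04Rik and Atat1 lower and H2-T-ps higher, beside 4.84% lower and 7.99% higher of all tested genes. Of the 46, 30 had negative differences (50.8% of all tested genes), and their median was -0.12, beside 0.00 over all. H2-Ea-ps, which C57BL/6 mice do not transcribe, had 0 counts in all 5 libraries. That value cannot tell C57BL/6 from any other strain that does not transcribe this gene. H2-Ea-ps (34341959 to 34344645) also lies outside the stretch from H2-Q4 to H2-M3, so the haplotype around Gabbr1 was not tested. The class II gene H2-Eb1 had 171, 73 and 92 counts in null and 41 and 34 counts in WT (edgeR adjusted p = 0.0452). That call was lost without null library 1 (edgeR adjusted p = 0.0718), WT library 1 or WT library 2 (log2 fold change 1.58 and 1.53).

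**Figure D4:**
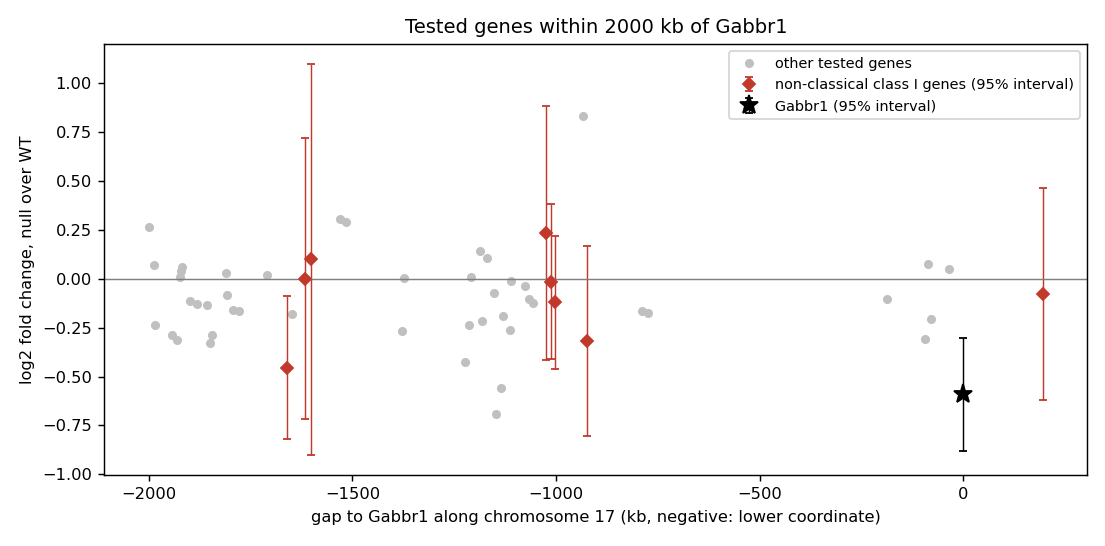
Log2 fold change of null over WT against the gap to Gabbr1 in kb for the 55 tested genes within 2000 kb, with 95% intervals for the class I genes (diamonds) and for Gabbr1 (star). Gabbr1 is the only gene called, and H2-M3, the nearest to it of the 8 genes shown as diamonds, lies at -0.08.

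How far reads can be assigned differed between the genes. Of all 50-base stretches of its annotated transcripts, 0.6% of those of H2-M3 and 3.2% of those of H2-T24 also occur in a transcript of another gene. This share was 13.6% for H2-T23 and 21.8% for H2-Q4, and it reached 26.4% for H2-Q7, 32.0% for H2-Q6, 32.9% for H2-T10 and 34.5% for H2-T22. H2-T10 and H2-T22 share 1124 such stretches with each other, and H2-Q6 shares 284 with H2-Q7 and 251 with H2-Q4. With the pairs summed, H2-Q6 plus H2-Q7 had a log2 fold change of 0.04 (edgeR adjusted p = 0.983) and H2-T10 plus H2-T22 one of -0.17 (edgeR adjusted p = 0.70). Exons of H2-Q4, H2-T10 and H2-T22 overlap an annotated antisense transcript over 496, 925 and 1003 bases, and no source used here states the strand setting of the counting, so their counts are uncertain to that extent.

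The genes whose profile over the 5 libraries lay nearest to that of H2-Q4 were Ocel1, Adora2a (the adenosine A2a receptor gene) and Syn3 (a synapsin gene), with root mean square distances of 0.0308, 0.0410 and 0.0616 on the centred log2 scale. None lies on chromosome 17, and none was called (edgeR adjusted p = 0.396, 0.373 and 0.660). Adora2a had 18.9, 14.9 and 13.2 CPM in null libraries 1, 2 and 3, against 19.0 and 23.8 CPM in WT.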

How the data were processed

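RNA of sorted LSK cells was sequenced in 5 libraries with 2 reads of 50 bp per fragment, after depletion of ribosomal RNA, per the labels' protocols (the molecule field says polyA RNA). STAR, featureCounts and the mm10 build are named in the submitters' processing notes. Not given in the sources used here were versions, annotation release, strand setting and the handling of reads with several matches. Raw counts per gene, 1 column per library, are what the authors deposited. Totals ran from 6972753 to 8150774, so that rare transcripts are limited by counting.

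99.5% of the 39056 identifiers matched GENCODE M21 (mm10) when versions were ignored, and symbols, positions and exon lengths come from it. Genes kept by filterByExpr (13467) were scaled by TMM and tested with edgeR 4.0.16 (quasi-likelihood, genotype only, 3 residual degrees of freedom) in R 4.3.3 with limma 3.58.1. Alternatives were DESeq2 1.42.0, limma-voom, other scalings and filters, sex as a covariate, summed paralogs and each library left out. Log2 values per library use a prior count of 2. The code was tested on simulated counts.

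H2-Q4 without null library 1 in DESeq2 and limma-voom was added after the data were seen. The genes and lists were chosen with earlier results of these data known. Named by rule were all 10 genes, label checks, the 2 most abundant tested genes of a list, called genes, and the 3 nearest profiles to H2-Q4, of which the text gives a selection. Outside the rule, and named after their values were seen, were Nlrc5, Cd3d, Cd3e, Cd3g, Trac, Klrc1, Ifit2, Irf2, Rela, Ddx3y, Eif2s3y, Uty and the 5 neighbours of Gabbr1. The same holds for H2-Q5 and Cd4. In the extraction protocol of the labels 4 mice are stated for each genotype, and 3 null and 2 WT libraries were analysed.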

Additional observations from a re-analysis of the deposited data

How the results depend on the processing

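No class I gene was called higher under any alternative. H2-Q4 was called lower (1 gene lower) with no filter on low counts (log2 fold change -0.46, edgeR adjusted p = 0.0089), with sex as a covariate (-0.65, edgeR adjusted p = 0.0232) and without null library 1 in edgeR, DESeq2 and limma-voom, the last pair of fits added after the data were seen. Sex was set by whether Xist counts exceeded the summed counts of Ddx3y, Eif2s3y, Kdm5d and Uty. Null library 1 is the only one where they did, so the covariate takes it out of the comparison. The log2 fold change of H2-Q4 ran from -0.65 to -0.29 without each library, its adjusted p otherwise from 0.193 to 0.782 over edgeR fits, and it was 0.283 in DESeq2 and 0.258 in limma-voom. Without each library in turn the count called lower ran from 0 to 1, and the summed level gave log2 ratios from -0.40 to -0.03, with -0.22 by library totals and -0.03 without H2-Q4.

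Differences near 0 changed sign. H2-Q6 (0.00) was 0.00 but negative with RLE factors, no filter and DESeq2, -0.01 with upper quartile factors, -0.11 in limma-voom and -0.43 with sex as a covariate, where H2-Q7 was -0.50 and H2-T24 -0.19. Over the edgeR fits that left out a library, log2 fold changes ran from -0.43 to 0.28 for H2-Q6, -0.49 to 0.71 for H2-Q7, -0.19 to 0.50 for H2-T24, -0.20 to 0.16 for H2-T23 and -0.43 to 0.35 for H2-M3. Without null library 1, DESeq2 gave -0.44, -0.51 and -0.20 and limma-voom -0.45, -0.43 and -0.22 for H2-Q6, H2-Q7 and H2-T24. The cause was not tested. Fits with a single WT library take its spread from the null libraries. No paired analysis was possible because the labels give no replicate numbers.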

Other observations

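Among 15 further class I rows of chromosome 17 that were listed by name, only the pseudogene H2-T-ps passed the filter on low counts. It had 34, 36 and 40 counts in null libraries 1, 2 and 3 and 18 and 22 counts in WT, and its log2 fold change was 0.83 with SE 0.35, at an edgeR adjusted p of 0.341. 6 of the 15, all of the H2-M group, were listed at 0 in every library. H2-T-ps shares 183 of its 50-base stretches with H2-T23. H2-Q5, a Q region gene outside the 10 genes and these 15 rows, was also tested (log2 fold change -0.18, edgeR adjusted p = 0.882). It shares 393 such stretches with H2-Q7.

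Of 12 genes with a row that encode receptors of class I molecules, 3 were tested and 0 called, where 2.48% of all tested genes were. Klrc1, the NKG2A chain that pairs with CD94 to read Qa-1, was listed at 0 in every library. Klrd1, the CD94 chain, had 34, 22 and 9 counts in null libraries 1, 2 and 3 and 5 and 6 counts in WT (edgeR adjusted p = 0.205). Pirb, an inhibitory receptor of class I on myeloid and B cells, had 106, 55 and 61 counts in null and 121 and 118 counts in WT (edgeR adjusted p = 0.279). Without null library 1 Pirb was called lower (log2 fold change -1.10, edgeR adjusted p = 0.0195), where 0.386% of all tested genes were. Null library 1 was the highest null library for Pirb, so leaving it out lowered the estimate. That call is no separate result, and the share over all genes is not a like comparison. Of 5 tested class I-like genes outside the H2 complex, 0 were called, again beside 2.48% of all tested genes. Ulbp1 and Cd1d1, the most abundant of these, had log2 fold changes of 0.33 and -0.20 (edgeR adjusted p = 0.385 and 0.597).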
